A study of Homo sapiens with 16 samples.

Results

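Transcripts of 10 genes for actin, for proteins that bind actin filaments and for a myosin light chain were followed in SUM-225 cells after HER2 inhibition. SUM-225 is a breast cancer cell line with amplified and over expressed HER2, and CP724,714 is an inhibitor of the HER2 tyrosine kinase. The genes were TAGLN, TAGLN2, TPM1, TPM2, MYL9, CNN1, CNN2, CALD1, ACTA2 and ACTB, and every probe on the array that carries one of these symbols was taken. That gave 19 probes of the 24526 on the array, for 10 of 18631 symbols. A probe was called detected at a detection p-value under 0.05, and the 16110 probes detected on at least 3 arrays were tested. Of the 19 member probes, 16 passed this filter, and they stood for 9 genes. The genes were chosen by what they encode together with the measured log2 differences of these same arrays between 9 and 12 h and between 21 and 24 h, so those swings are given below as a description with no test.

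By the sample records, all cultures grew in medium with 5% fetal bovine serum, 5 µg/ml insulin and 1 µg/ml hydrocortisone, and all received 1 µM CP724,714. The methods of the study instead describe a serum-free medium lacking insulin and EGF for SUM225 cells, and this difference was not resolved. RNA came from parallel cultures every 3 h from 0 to 45 h, and each of the 16 time points had 1 bead array. There was no replicate and no untreated course, so an effect of the drug cannot be told apart from one of time in culture, and the spread behind each p-value is the scatter of 1 array per time point around a fitted course. The arrays had median signals between 242.2 and 383.8 and called between 14110 and 15073 probes detected. The 45 h array had the fewest detected probes. Values below are deposited signals or log2 values after background correction and quantile normalization, and a log2 difference of 1 is a doubling.

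Actin filaments are polymers that give a cell its shape and carry tension when myosin pulls on them. Tropomyosins lie along the filament, and calponins, caldesmon and the transgelins bind it and tune its contact with myosin, while the regulatory light chain switches myosin on. Several of these genes are used as markers of smooth muscle and of myoepithelial cells, the contractile outer layer of the breast duct, and many are classical targets of serum response factor (SRF), which binds the CArG box. ACTB is cytoplasmic beta actin, present in nearly all cells.

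The cells were checked against marker genes. All 8 luminal epithelial markers on the array were detected on every array, KRT19 and ERBB2 among them. Of the 10 fibroblast and smooth muscle markers, 0 were detected on all arrays and 8 were detected on none, among them DES, MYH11, VIM and PDGFRB. Their summed signal lay between 1711 and 2230 over the course and was 2036 at 9 h and 1964 at 12 h, then 2172 at 21 h and 1745 at 24 h. Of 7 basal and myoepithelial markers, 4 were detected on every array and TP63 on none, and the summed signal of the 7 lay between 8127 and 31920. It went from 26310 at 9 h to 22260 at 12 h, and from 24910 at 21 h to 17820 at 24 h, in signals not normalized between arrays, whose median signal was 361.2 at 21 h and 276.0 at 24 h. On normalized values the log2 differences between 21 and 24 h were -0.10 for KRT17, -0.04 for CDH3, 0.20 for KRT5 and -1.06 for OXTR. Between 9 and 12 h they were -0.32, 0.10, -0.70 and 0.58 in the same order. Of 6 endothelial and blood markers, 2 were detected on every array and PTPRC on none. In such bulk RNA, fewer cells of a type and less RNA per cell cannot be told apart.

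Promoter sequences were read from RefSeq on GRCh38.p14, taking the 250 bases before each annotated start, to show where the CArG box occurs among these genes. Of the 10 members, 7 matched an entry and had 14 starts. The members without an entry were TAGLN, MYL9 and ACTB. The 4 promoters shown are those of CNN2, the member with an exact CArG box, of ACTA2 at the start with 2 near matches, of ACTG2, the smooth muscle gamma actin described below, and of CNN1, which was not detected. Capitals mark exact CArG boxes, or in ACTA2 those with 1 departure.
CNN2, chr19:1026358-1026607, plus strand: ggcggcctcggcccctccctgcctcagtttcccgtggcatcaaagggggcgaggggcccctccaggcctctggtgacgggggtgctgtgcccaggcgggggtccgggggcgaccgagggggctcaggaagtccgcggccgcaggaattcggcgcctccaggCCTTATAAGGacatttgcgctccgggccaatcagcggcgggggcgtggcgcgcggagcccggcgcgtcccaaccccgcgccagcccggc
ACTA2, chr10:88952774-88953023, minus strand: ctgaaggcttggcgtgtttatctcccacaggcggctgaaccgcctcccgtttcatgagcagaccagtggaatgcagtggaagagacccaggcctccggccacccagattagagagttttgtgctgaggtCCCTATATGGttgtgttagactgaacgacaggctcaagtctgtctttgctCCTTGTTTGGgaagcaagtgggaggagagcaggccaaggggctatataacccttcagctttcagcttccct
ACTG2, chr2:73892758-73893007, plus strand: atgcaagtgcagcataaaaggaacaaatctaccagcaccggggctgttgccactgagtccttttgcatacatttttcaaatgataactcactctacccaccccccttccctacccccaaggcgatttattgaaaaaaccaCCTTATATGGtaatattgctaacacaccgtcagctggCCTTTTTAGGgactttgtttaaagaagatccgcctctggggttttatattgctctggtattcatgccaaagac
CNN1, chr19:11538601-11538850, plus strand: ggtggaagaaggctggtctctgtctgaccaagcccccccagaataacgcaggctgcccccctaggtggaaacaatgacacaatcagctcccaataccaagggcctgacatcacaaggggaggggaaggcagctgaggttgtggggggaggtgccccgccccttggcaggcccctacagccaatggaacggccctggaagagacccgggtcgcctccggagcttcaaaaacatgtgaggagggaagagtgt

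The box in CNN2 reads CCTTATAAGG and lies at -89 to -80 from the start. ACTA2 holds CCCTATATGG at -121 to -112 and CCTTGTTTGG at -71 to -62, and ACTG2 holds CCTTATATGG at -110 to -101 and CCTTTTTAGG at -73 to -64. On both strands together, an exact box was found in 1 of the 14 member starts, against 1.16% of 35116 starts in the table. Allowing up to 1 departure, 4 of the 14 held one, against 16.8% of all starts. In 9 relatives from the same protein families, which include ACTG1, ACTG2, ACTA1, ACTC1 and TPM4, 5 of 16 starts held an exact box. GGAATG, the core that TEAD factors bind, was present in 3 of the 14 member starts and in 11.9% of all starts. The search says only which letters lie in these windows.

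TAGLN encodes transgelin, an actin cross-linking protein of the calponin family that is abundant in smooth muscle. Its brighter probe, ILMN_1778668, had deposited signals of 7054, 6153, 5828 and 6451 at 0, 3, 6 and 9 h and of 1059, 996, 902 and 900 at 12, 15, 18 and 21 h. The signals were 3721, 4076, 2333 and 1590 at 24, 27, 30 and 33 h and 1091, 1213, 1036 and 780 at 36, 39, 42 and 45 h. The first 4 arrays were thus the highest, all arrays from 12 to 21 h were below all of those from 24 to 33 h, and the last 4 were again low. Between 9 and 12 h the normalized value went from 12.66 to 9.81, a level 7.24-fold lower, which was the change ranked 3 from the bottom among the 16110 probes tested. Between 21 and 24 h it went from 8.99 to 11.88, a level 7.37-fold higher and the largest increase of any probe tested at that step. Within each of the last 3 sets of 4 arrays the level ended lower than it began, by 0.81, 1.25 and 0.39 on the log2 scale.

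The second TAGLN probe, ILMN_2400935, had the same pattern at a lower brightness. Its log2 values lay between 9.65 and 10.08 from 0 to 9 h, between 6.75 and 7.51 from 12 to 21 h, between 8.18 and 8.87 from 24 to 33 h and between 7.45 and 8.13 from 36 to 45 h. It was 6.94-fold lower at 12 h than at 9 h and 3.12-fold higher at 24 h than at 21 h. Without background correction these log2 differences of -2.80 and 1.64 shrank to -1.77 and 0.99, while those of the brighter probe were -2.64 and 2.53. The pair of probes had a Pearson r of 0.966 over the 16 arrays, a description with no test. The third TAGLN probe, ILMN_1706783, was detected on 0 of the 16 arrays.

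**Figure D1:**
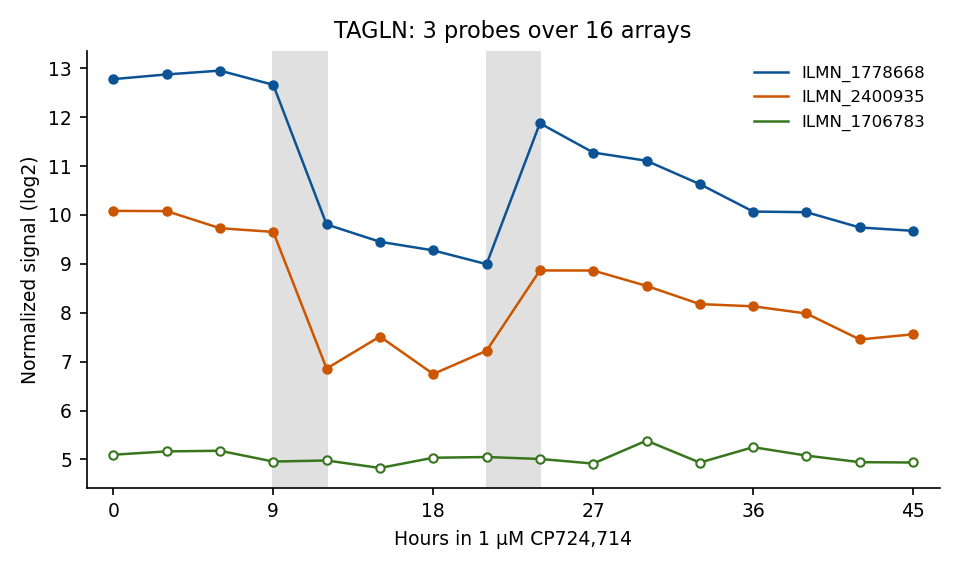
Normalized log2 signal (vertical axis) of the 3 TAGLN probes against hours in CP724,714 (horizontal axis), 1 array per point, with filled points where the probe was detected, open points where it was not, and grey bands over 9 to 12 h and 21 to 24 h. Both detected probes are lower from 12 h, higher again at 24 h and lower by 45 h, and the brighter one passes from 12.66 at 9 h to 9.81 at 12 h and from 8.99 at 21 h to 11.88 at 24 h.

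The swing of TAGLN was set against all probes. A change of 1.7-fold downward between 9 and 12 h was seen in 3 of the 16 member probes, the pair for TAGLN and 1 for MYL9, and in 3.83% of all probes tested. None of the members was 1.7-fold higher at that step, against 2.97% of all probes. Between 21 and 24 h, 2 member probes were 1.7-fold higher, again the pair for TAGLN, against 2.43% of all, and 0 were 1.7-fold lower, against 2.44%. Both changes in turn, down and then up, were shown by 97 probes, 0.602% of those tested, and at 2-fold by 0.217%. Ranked by the smaller of the 2 changes, the TAGLN probes took places 1 and 2, followed by OLR1, SLC2A6 and DIO1. Since the genes were chosen for this contrast, nothing is read from these counts.

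Of the 16 tested member probes, 13 moved by less than 1.7-fold at both steps. The median log2 difference of the members between 9 and 12 h was -0.33, against 0.01 over all probes tested, and between 21 and 24 h it was 0.10 against -0.01. The lowest and highest member differences were -2.86 and 0.55 at the earlier step and -0.30 and 2.88 at the later step. Of the members past 1.7-fold at 9 to 12 h, the smallest difference was that of MYL9 at -1.29, or 2.45-fold. The largest falls short of the limit were those of the dimmer CNN2 probe at -0.54 and ACTA2 at -0.53, or 1.45-fold each. The tested TPM2 probes were higher at that step, by 0.55 and 0.54, or 1.47-fold and 1.45-fold. The whole array also moved more at some steps than at others, and the SD of all probe differences was 0.42 at 9 to 12 h, 0.36 at 21 to 24 h and 0.42 at 42 to 45 h, against 0.26 at 18 to 21 h.

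**Figure D2:**
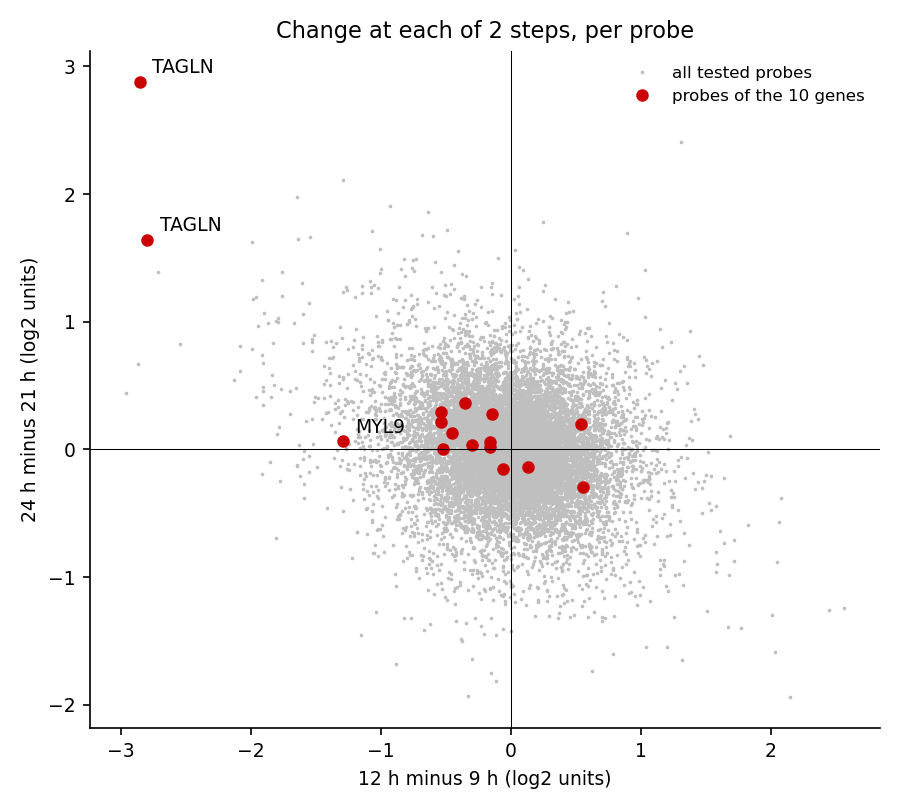
Log2 difference between 9 and 12 h (horizontal axis) and between 21 and 24 h (vertical axis) of all 16110 tested probes, in grey, and of the 16 tested member probes, in red, 1 array per time point. Of the red points, the 2 for TAGLN lie at the upper left, MYL9 lies at -1.29 on the horizontal axis and near 0 on the vertical, and the others lie between -0.54 and 0.55 on both axes.

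A line through the 12 arrays outside 9, 12, 21 and 24 h was fitted to every probe, so that the trend did not use the arrays of the swings. A change between 9 and 12 h that lasted on later arrays still enters this line, so the trend is not separate from the swings. Over these arrays 10 of the 16 member probes, for 6 genes, fell with time at an adjusted p under 0.05 by limma with Benjamini-Hochberg adjustment over all probes, against 18.8% of all probes tested. The dimmest TPM1 probe alone rose, against 22.5% of all. The median fitted change over 45 h was -0.64 on the log2 scale for the member probes tested and 0.05 for all probes. The fallers were the probes of TAGLN, TAGLN2, MYL9, CNN2, ACTA2 and ACTB. Both MYL9 probes passed the filter mainly through early arrays where they were high, and without them 8 of 14 probes, for 5 genes, fell and 1 rose, with a median change of -0.51. The members were picked with results of these arrays known, and the count is not independent evidence of a direction. With the 4 sets of 4 consecutive arrays as a factor on the same 12 arrays, an alternative added after the data were seen, 0 of the 16 member probes and 0 of all probes passed by limma, and 6 member probes and 11.3% of all probes had an unadjusted p under 0.05.

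**Figure D3:**
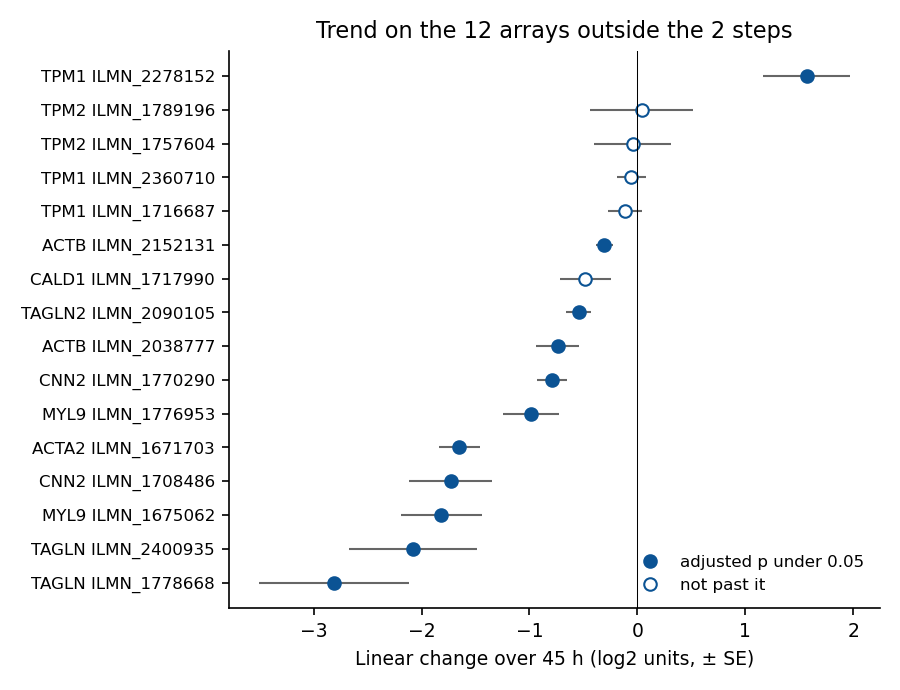
Fitted change over 45 h on the log2 scale (horizontal axis), with its standard error as a bar, for the 16 tested member probes, from a straight line over the 12 arrays outside the swings; filled points passed an adjusted p of 0.05. The values run from -2.81 for the brighter TAGLN probe to 1.57 for the dimmest TPM1 probe, and those of the bright TPM1 probes and of TPM2 lie near 0.

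TAGLN had the steepest line. The brighter probe fell by 2.81 on the log2 scale over 45 h, with an SE of 0.70 and an adjusted p of 0.00413 by limma. The dimmer probe fell by 2.08 with an SE of 0.59 and an adjusted p of 0.01 by limma, and its call was lost without the 0 h array, where the change was -1.76 with an adjusted p of 0.0564. With the sets of 4 arrays as a factor on the same 12 arrays, the changes of the brighter and dimmer probes were -2.07 with an SE of 0.76 and -4.03 with an SE of 0.93, and neither passed, at adjusted p of 0.367 and 0.322 by limma. Around a cubic course the brighter and dimmer probes had residual SDs of 1.05 and 0.80, ranks 2 and 5 of the 16110, against a median of 0.19. The sets were seen in the data and are named in no label, and their part in the course of TAGLN was not tested.

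ACTA2, smooth muscle alpha actin, fell over the course. Its log2 values were 10.35, 10.28, 10.42 and 10.43 at 0, 3, 6 and 9 h and 9.90, 9.73, 9.53 and 9.46 at 12, 15, 18 and 21 h. They were 9.75, 9.75, 9.48 and 9.13 at 24, 27, 30 and 33 h and 8.93, 8.86, 8.55 and 9.14 at 36, 39, 42 and 45 h. The 4 earliest arrays lay above all later ones, and the lowest value was at 42 h. The line over 12 arrays fell by 1.65 with an SE of 0.19 and an adjusted p of 5.8e-06 by limma, and at 45 h the level was 2.32-fold lower than at 0 h. The step between 9 and 12 h was -0.53 and that between 21 and 24 h was 0.29.

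MYL9 encodes a regulatory light chain of the myosin found in smooth muscle and nonmuscle cells. Its brighter probe, ILMN_1675062, was at 7.57, 7.57, 7.67 and 7.58 at 0, 3, 6 and 9 h and at 6.29 at 12 h, and stayed between 5.53 and 6.21 from 15 h on. It was detected on 8 arrays, those from 0 to 15 h and at 36 and 42 h, so the later values are mostly at background. The level at 12 h was 2.45-fold lower than at 9 h, a log2 difference of -1.29 that became -0.54 without background correction and then missed 1.7-fold. At 45 h the level was at least 2.51-fold lower than at 0 h. The fitted change of the line was -1.82 with an SE of 0.38, and -0.73 without background correction. The second MYL9 probe was detected on 6 arrays, 5 of them the first of the course, and its line had a fitted change of -0.98 with an SE of 0.26, and -0.34 without background correction. As both probes passed the filter mainly through the arrays where they were high, these changes are no support for a direction. Neither probe was detected at 21 or 24 h, so no fold is given for that step.

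The calponins bind actin and calmodulin. CNN1, the smooth muscle calponin, had signals between 144.1 and 200.9 and was detected on 0 of 16 arrays. CNN2, the widely expressed form, was bright, and its probe ILMN_1770290 fell from 13.21 at 0 h to 12.34 at 15 h and then stayed between 12.26 and 12.55. The line fell by 0.79 with an SE of 0.14 and an adjusted p of 0.000242 by limma. The dimmer CNN2 probe, ILMN_1708486, was between 8.46 and 8.90 from 0 to 9 h and between 7.63 and 8.12 from 12 to 42 h, and was not detected at 45 h. It was at least 4.91-fold lower at 45 h than at 0 h and fell by 1.73 with an SE of 0.38 and an adjusted p of 0.00186 by limma. Without the 45 h array the probe fell by 1.14, and without background correction it fell by 0.94, both still past the threshold.

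TAGLN2, a transgelin found in many epithelial cells, had log2 values between 13.17 and 14.28. Its highest value was at 9 h and its lowest at 45 h. The line fell by 0.54 with an SE of 0.12 and an adjusted p of 0.00138 by limma, while the step from 9 to 12 h was -0.52 and that from 21 to 24 h was near 0. The value of TAGLN2 moved less than that of either TAGLN probe over both steps.

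ACTB was among the brightest probes on the array. ILMN_2152131 had signals between 57437 and 71353 up to 42 h and 37197 at 45 h, and ILMN_2038777 between 48147 and 69295 up to 42 h and 20058 at 45 h. Both were lowest at 45 h, the array with the fewest detected probes. The lines fell by 0.31 with an SE of 0.08 and an adjusted p of 0.00594 and by 0.74 with an SE of 0.20 and an adjusted p of 0.00723, both by limma. Without the 45 h array the changes were -0.21 and -0.42, and both stayed past the threshold. Under median scaling the brighter probe fell by 0.59 with an adjusted p of 0.0251 by limma, and its difference between 21 and 24 h was 0.48 in place of 0.02. The brighter probe reached 97.2% of its array's maximum, close to the top of the scale. Between 42 and 45 h, 4 member probes were 1.7-fold or more lower, as were 4.6% of all probes tested.

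The tropomyosins went their own ways. The bright TPM1 probes, ILMN_2360710 and ILMN_1716687, were highest at 0 h, at 14.75 and 14.19, and lowest at 12 h and 9 h, at 14.10 and 13.42. Their lines changed by -0.05 with an SE of 0.13 and an adjusted p of 0.775 and by -0.12 with an SE of 0.16 and an adjusted p of 0.599, both by limma. The cubic course passed the test for both, with adjusted p of 0.00311 and 0.00199 by limma, and their r with each other was 0.963. The dimmest TPM1 probe, ILMN_2278152, was 5.58 at 3 h, where it was not detected, and between 6.30 and 8.17 on the other arrays. It rose by 1.57 with an SE of 0.40 and an adjusted p of 0.00533 by limma, and by 0.67 without background correction. The 3 probes of TPM1 did not share a direction.

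TPM2 had 2 tested probes with a rough course. ILMN_1789196 went from 7.16 at 3 h to 9.04 by 6 h, reached 9.10 by 12 h and had come down to 7.61 by 30 h and 6.87 by 45 h, and ILMN_1757604 followed with an r of 0.854. Their lines changed by 0.04 with an SE of 0.48 and an adjusted p of 0.955 and by -0.04 with an SE of 0.36 and an adjusted p of 0.936, both by limma. At 9 to 12 h, where TAGLN was lower, both TPM2 probes were higher, by 0.55 and 0.54. The residual SD of the first, 0.60, ranked 49 of the 16110. The third TPM2 probe was detected on 0 arrays.

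CALD1 encodes caldesmon, which holds back the contact of myosin with actin. Its probe was dim, with log2 values between 5.66 and 6.55, and was detected on 8 arrays. The line changed by -0.48 with an SE of 0.24 and an adjusted p of 0.119 by limma. Without the 3 h array the change was -0.67 with an adjusted p of 0.0485 by limma.

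**Figure D4:**
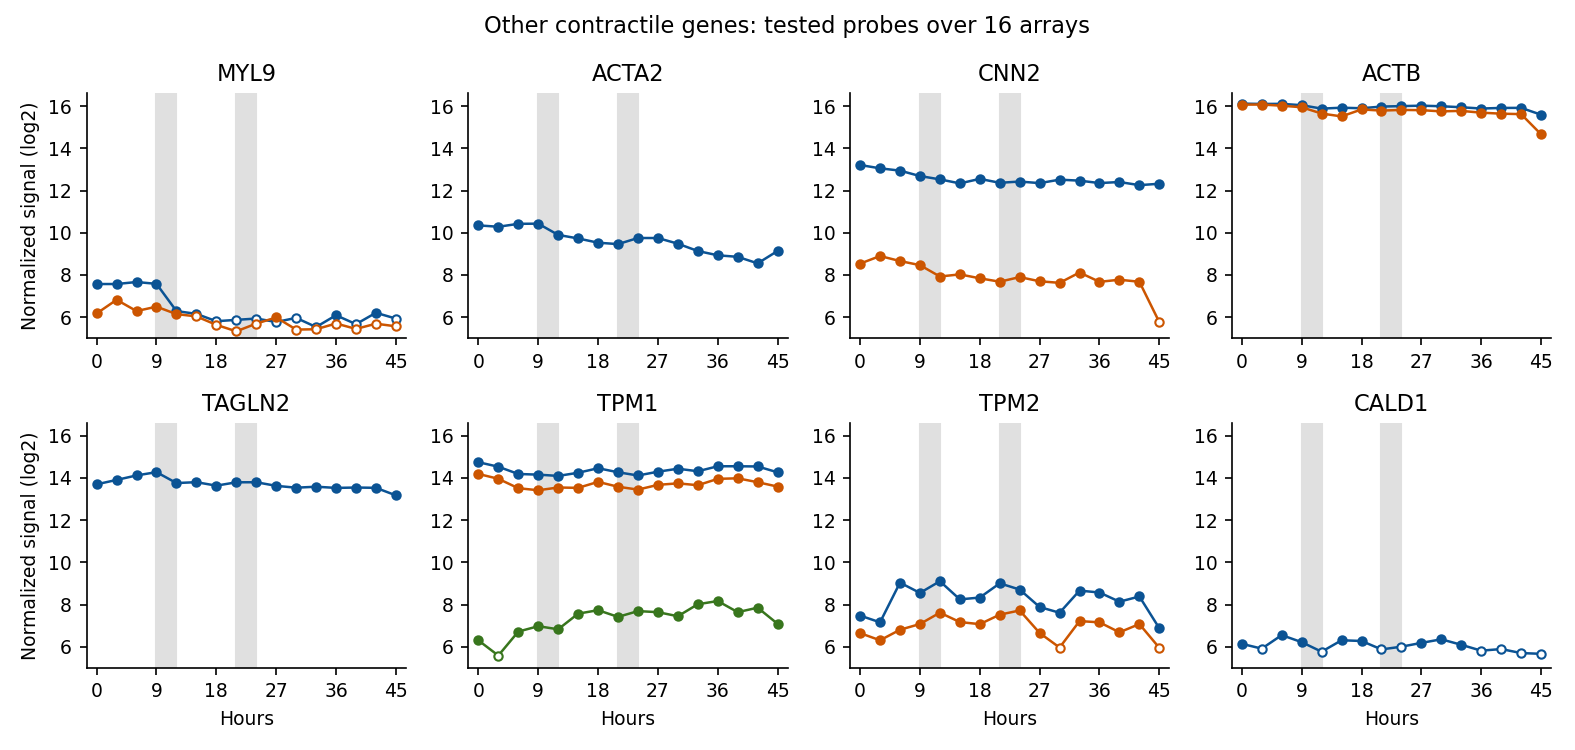
Normalized log2 signal (vertical axis) against hours in CP724,714 for the tested probes of the other 8 genes, 1 colour per probe and 1 array per point, open where the probe was not detected, with grey bands over 9 to 12 h and 21 to 24 h. ACTA2 goes from 10.35 at 0 h to 9.14 at 45 h, the brighter MYL9 probe passes from 7.58 at 9 h to 6.29 at 12 h, and the bright TPM1 probes stay within 14.10 to 14.75 and 13.42 to 14.19.

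The fits over all 16 arrays hold the values at 9, 12, 21 and 24 h that the members were chosen by, and nothing about the members is read from their counts. In them, a cubic in hours passed the F-test of limma for 13 of the 16 member probes, for 7 genes, against 51.3% of all probes tested. The linear term fell for 10 probes and rose for 1, against 21.7% and 26.0% of all probes. The higher-order terms, which measure bending of the course, were called for 8 member probes, against 19.3% of all. A line with the sets of 4 arrays as a factor called 1 of the fallers, the brighter TAGLN probe, where 0.478% of all probes fell and 0.422% rose. In that fit ACTA2 changed by -1.10 with an adjusted p of 0.446, the brighter MYL9 probe by -0.91 with an adjusted p of 0.648, and the brighter CNN2 and ACTB probes by -0.71 and -0.38 with adjusted p of 0.434 and 0.542, all by limma.

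Among the 7 members detected on all arrays, the brightest probes gave 21 pairs. Their r across the 16 arrays lay between -0.49 and 0.78, with a median of 0.46, and 10 pairs were over 0.5 and 6 under 0. The points share cultures, arrays and normalization, and these values are a description with no test. TAGLN had an r of 0.783 with CNN2, 0.735 with ACTA2, 0.717 with ACTB, 0.588 with TAGLN2, 0.04 with TPM1 and -0.18 with TPM2.

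Of the 10310 other genes detected on all arrays, those most like the brighter TAGLN probe by Pearson r over 16 arrays were LDHB at 0.968, ELOVL6 at 0.965, RDH11 at 0.955, GAS6 at 0.944 and SLC2A6 at 0.943. The arrays at 9, 12, 21 and 24 h were part of this choice, so like steps there are a description with no test. LDHB, a lactate dehydrogenase subunit, went from 11.96 at 9 h to 10.53 at 12 h and from 10.54 at 21 h to 11.19 at 24 h. ELOVL6, a fatty acid elongase, went from 12.18 to 11.03 and from 10.70 to 11.98 at the same steps. The genes most like the mean of the 7 members were GLO1 at 0.967, TYMS at 0.963, DYNC2I2 at 0.958, SNRPA at 0.957 and TK1 at 0.954. For this mean the log2 values were centred but not scaled, so members with a wide range weigh most. TAGLN spanned 15.55-fold and TPM2, the next widest, 4.69-fold, so the mean is not a course shared by all 7. TYMS and TK1 are enzymes of thymidine nucleotide synthesis.

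**Figure D5:**
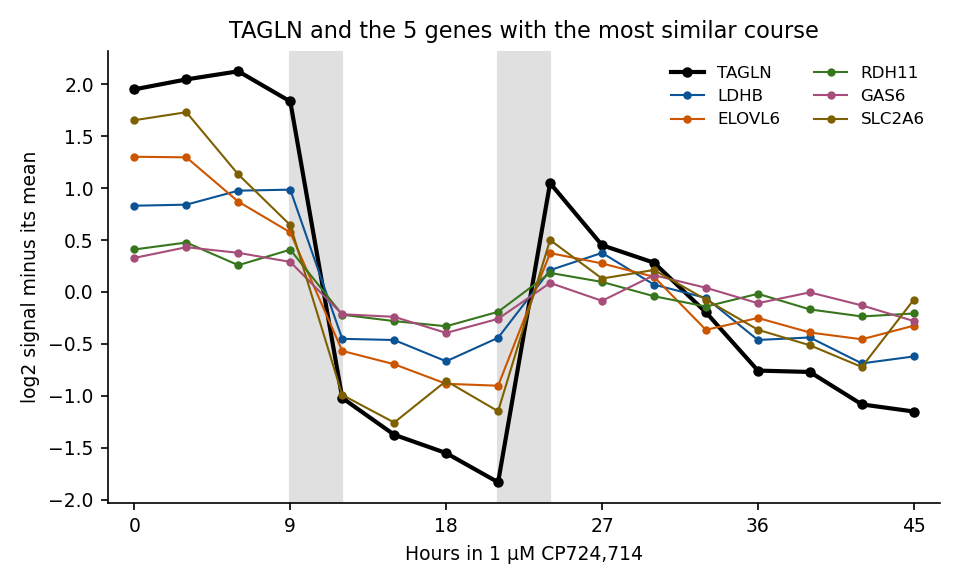
Log2 signal minus its mean over the course (vertical axis) against hours in CP724,714 for the brighter TAGLN probe, in black, and the 5 genes whose course was most like it, 1 array per point, with grey bands over 9 to 12 h and 21 to 24 h. All 6 curves are lower at 12 h than at 9 h and higher at 24 h than at 21 h. The 5 genes were picked for likeness over all arrays, these included, so the shared steps follow from the choice.

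Other genes of the same protein families were read from a list of 9, each by its probe with the highest mean value. Of these, 7 were tested, 3 fell and 1 rose, with a median change of -0.17, against 18.8% of all probes falling and 22.5% rising. Of the 5 detected on all arrays, 1 fell and 1 rose, with a median change of -0.02. ACTG2, smooth muscle gamma actin, had log2 values of 8.46, 8.75, 8.23 and 8.23 at 0, 3, 6 and 9 h and was not detected on any of the 12 later arrays. At 12 h it read 5.37 and was at least 4.68-fold lower than at 9 h. ACTA1, skeletal muscle alpha actin, was 7.85, 6.84 and 6.56 at 0, 3 and 6 h and was not detected from 9 h on. ACTG2 and ACTA1 passed the filter through their early arrays alone. Their fitted changes of -3.57 and -1.94 are therefore no support for a direction. TPM3 fell by 0.91 with an adjusted p of 0.0062, and CNN3 rose by 0.27 with an adjusted p of 0.0491, both by limma. ACTG1 and MYL6, at 87.2% to 98.4% and 90.1% to 97.1% of the array maximum, changed by -0.02 and 0.02 and did not pass the test. TAGLN3 and ACTC1 were detected on 0 arrays.

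Genes that work on the same filaments were counted from 4 further lists, by the line over 12 arrays, in which 18.8% of all probes fell and 22.5% rose and the median change was 0.05. Each listed gene was read from its probe with the highest mean value, while these shares cover every tested probe, so they are not like for like. Of 25 tested proteins that crosslink actin or anchor it at adhesions, 12 fell and 2 rose, with a median of -0.42. FHL1, among the fallers, passed the filter through only 4 arrays, so its change is no support for a direction. On all arrays 23 of the 25 were detected, and with that filter 14 of the list passed in either direction. FSCN1, which bundles filaments in protrusions, fell by 2.04 with an adjusted p of 8.47e-06, and ACTN1, an actinin, fell by 1.79 with an adjusted p of 0.000153, both by limma. Of 29 turnover proteins, 10 fell and 7 rose, with a median of -0.11, and SCIN, a filament severing protein, rose by 3.41 with an adjusted p of 4.89e-06 by limma. Of 17 myosins and regulators, 2 fell and 4 rose, with a median of 0.02. MYLK, the kinase of the light chain, fell by 1.18 with an adjusted p of 0.0182 by limma and was detected on 6 arrays. As MYLK passed the filter through those arrays alone, this change is no support for a direction. Of 8 members of the SRF list, 2 fell and 0 rose, with a median of -0.29. SRF itself changed by 0.37 with an adjusted p of 0.129, and FHL2 fell by 1.31 with an adjusted p of 0.000112, both by limma. Of the marker genes tested, 3 of 5 basal, 2 of 8 luminal and 0 of 2 fibroblast or smooth muscle genes fell, and 1 luminal and 1 of 3 endothelial or blood genes rose. KRT18, a luminal keratin, fell by 0.87 with an adjusted p of 0.00141, and VWF, an endothelial clotting protein, rose by 2.67 with an adjusted p of 1.25e-06, both by limma. KRT17, a basal keratin, fell by 3.21 with an adjusted p of 3.69e-09 by limma. OXTR fell by 2.91 with an adjusted p of 8.19e-06 and KRT5 by 1.18 with an adjusted p of 0.00207, both by limma. The other 2 of the 5 basal genes did not pass, among them CDH3 at -0.28 with an adjusted p of 0.143 by limma. The part of these basal genes in the falls of the contractile genes was not tested.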

How the data were processed

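Total RNA from SUM-225 cultures was measured on 16 human bead arrays, 1 per time point. The authors deposited a non-normalized table of bead intensity per probe with a detection p-value, and the p-value deposited beside each intensity was used as given. The methods name the Illumina human Ref8v2 array for the time courses of other cell lines of the study. The scanner software and genome build are not given in the sources used here. The intensities were background corrected with the detection p-values (neqc, offset 16), quantile normalized and taken to log2 in limma 3.58.1 under R 4.3.3. The filter kept 16110 of 24526 probes, those whose detection p was below 0.05 in 3 arrays or more. A cubic in hours (3 coefficients, 16 arrays) and a straight line (12 arrays, without 9, 12, 21 and 24 h) were fitted by lmFit with an intensity trend in eBayes, and p-values were adjusted by Benjamini-Hochberg over all probes tested. A linear coefficient is the change over 45 h. Where 1 side of a fold was not detected, it was set against the higher of its own value and the lowest detected value of that array, and written as at least. Array number limits the precision. Samples were grouped by the time in their labels. The members, the lists and the tests were chosen with earlier results of these data known, and the sets of 4 arrays were known from those results. The named genes are all member probes, the largest mover of each list past the threshold, relatives in the same families, and the 5 genes most like TAGLN and most like the members' mean, with cell type markers given as counts and some of them named as detected or not. ACTN1, FHL1, KRT5, CDH3, OXTR, OLR1, DIO1 and SRF were named beyond that rule after their values were seen. Each symbol was matched to RefSeq names, and 91% of symbols matched. The tests were checked on simulated straight-line changes with independent noise on each array. Shifts shared by sets of 4 arrays were not simulated, so the check does not cover them. Alternatives changed the background correction, offset, normalization, filter, array weights and the terms of the fit, and left out each array. Probe sequences were not used here, so cross-hybridization among the closely alike actins was not examined.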

Additional observations from a re-analysis of the deposited data

How the results depend on the processing

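The count of members past the threshold was 13 for the cubic course, 11 for the linear term and 11 for the line over 12 arrays, and stayed within 1.5 times under other background, offset and normalization settings. Leaving out each array gave 13 to 15, 11 to 11 and 10 to 12. With detection required on all 16 arrays, 7 members passed the linear term and 7 the line over 12 arrays, because fewer probes were tested, and the families list had 2 past the threshold. With sets of 4 arrays as a factor 1 member passed the linear term and 0 the line over 12 arrays (added after seeing the data), in which the TPM2 probe ILMN_1789196 was -0.057. With a step between 21 and 24 h, 8 members passed the linear term, the brighter TAGLN probe went from -2.64 to -7.56, and TAGLN2 lost its call at an adjusted p of 0.0934 by limma. With means of 4 arrays 5 member probes moved 1.7-fold or more across 9 to 12 h. The dimmest TPM1 probe among them was higher, with set means of 6.39 and then 7.39, and the others were lower. Under median scaling the myosin list had 3 and the SRF list 1 past the threshold, and with no filter the SRF list had 1. The cause was not tested in these last cases. The TPM1 probe ILMN_2360710, near 0 in its linear term (0.05), was -0.037 under median scaling, -0.0031 without the 42 h array, -0.56 with sets of 4 arrays and -0.062 with a step between 21 and 24 h. Over 12 arrays it was 0.11 without 0 h, 0.0065 without 45 h and 0.028 with array weights. The TPM2 probe ILMN_1789196 was -0.0059 under cyclic loess and -0.27, -0.36, -0.06, -0.07 and -0.08 without the 0, 3, 33, 36 and 42 h arrays over 12 arrays. Its linear term of -0.24 was 0.29 without 45 h, 0.56 with array weights and 0.52 with a step. Leaving out each array, the linear term reached as high as 0.23 for this TPM1 probe and as low as -0.65 for this TPM2 probe, and the line over 12 arrays as low as -0.16 and as high as 0.57. With sets of 4 arrays TAGLN2 was 0.034 and CALD1 was 0.37. No paired analysis was possible because no time point held more than 1 array. The main limits are the lack of replicates and of an untreated course, sets of 4 arrays that move with the swings, and probes near background, for which folds are bounds. ACTB is near the top of the scale.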
